A study of Mus musculus with 5 samples.

Results

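The genes described here are 10 regulators of the G1 phase of the cell cycle: the cyclins Ccnd1, Ccnd2, Ccnd3 and Ccne1, the kinases Cdk4 and Cdk6, the inhibitors Cdkn1a, Cdkn1b and Cdkn2a, and the transcription factor gene Myc. They were chosen by name, make up 10 of the 32793 gene rows of the tables, and all 10 passed the filter on low counts that left 13501 genes for testing. RNA was sequenced in bulk from mouse colon spheroids, which are epithelial cultures grown as three-dimensional bodies. The 2 mutant libraries came from cultures carrying the alleles Notch1DD and Notch2DD, which encode receptors that cannot dimerize (the genotype is called NDD), and the 3 control libraries came from wild-type (WT) cultures. All were of a mixed strain background, mainly C57Bl6 with a share of FVB, and no treatment, time or age was given for either group. The labels do not say whether replicates came from separate animals, so p-values measure the spread between these libraries, which may be technical.

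D-type cyclins bind CDK4 or CDK6 and start the phosphorylation of the retinoblastoma protein, which frees E2F factors to switch on genes of DNA synthesis, among them the gene for cyclin E. Cyclin E with CDK2 completes the step, while p21 (Cdkn1a) and p27 (Cdkn1b) hold cyclin-CDK2 in check and p16INK4a, one product of Cdkn2a, blocks CDK4 and CDK6. In the intestinal crypt, Wnt signalling sustains Myc and the dividing cells, p21 and p27 mark cells that leave the cycle, and Ccnd1, Myc and Cdkn1a have each been described as Notch targets in some cell types.

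Promoter sequences are shown for Cdk4 and Cdkn1a, an abundant activator and an abundant inhibitor of the cycle whose windows hold letters known from the factors at hand: the E-box CACGTG, to which MYC binds, and TGGGAA, the core to which RBPJ, the DNA-binding partner of Notch, binds. RefSeq windows on GRCm38.p6 covering 250 bases before a gene's start were searched on both strands for these motifs and for GCGGGAA, a core to which E2F factors bind. The matches printed do not overlap each other, and capitals mark them. The windows of Cdk4 (chr10:127063285-127063534, plus strand) and of the second annotated start of Cdkn1a (chr17:29093519-29093768, plus strand) read as follows.
Cdk4: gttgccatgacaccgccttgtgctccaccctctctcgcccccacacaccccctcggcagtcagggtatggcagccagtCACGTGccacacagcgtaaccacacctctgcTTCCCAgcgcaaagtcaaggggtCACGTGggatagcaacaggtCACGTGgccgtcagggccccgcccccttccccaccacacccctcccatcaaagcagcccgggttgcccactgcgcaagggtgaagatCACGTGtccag
Cdkn1a: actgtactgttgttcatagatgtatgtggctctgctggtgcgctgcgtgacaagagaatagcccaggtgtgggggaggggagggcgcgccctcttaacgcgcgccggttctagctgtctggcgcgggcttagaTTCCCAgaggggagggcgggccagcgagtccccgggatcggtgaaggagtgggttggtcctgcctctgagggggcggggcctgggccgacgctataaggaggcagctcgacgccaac
The Cdk4 window holds 4 E-boxes and 1 RBPJ core, and the Cdkn1a window holds 1 RBPJ core. Of 32851 promoter windows of this length, 6.02% hold at least 1 E-box, 7 windows hold 4 or more, and 21.6% hold an RBPJ core. The window of Cdk6 holds 1 E-box, and the upstream window of Cdkn2a holds 1 RBPJ core and 1 E2F core (3.82% of windows hold the latter). The windows of Ccnd3, Ccne1 and Cdkn1b and the other window each of Cdkn1a and Cdkn2a hold none of these letters. No window was searched for Ccnd1, Ccnd2 or Myc. These are matches of letters and were not compared with binding.

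Depth, as the total count of a library, was 22122748 and 22372029 for NDD and 19192389 to 23064000 for WT. Levels are given as CPM, counts scaled to a common library size. The 10 epithelial markers, among them Epcam and Cdh1, summed to 13570 to 14921 CPM in NDD and 13106 to 14159 CPM in WT. Markers of fibroblasts summed to 10.1 and 26.1 CPM in NDD replicates 1 and 2 and 4.86 to 9.38 CPM in WT, so both NDD libraries were above WT. Pdgfrb made up most of each of these sums, at 8.40 and 24.95 CPM in NDD and 3.47 to 6.36 CPM in WT. Only 1 of the 10 fibroblast markers was higher in both NDD libraries than in every WT library. Markers of immune cells summed to 2.46 and 4.11 CPM in NDD and 4.85 to 8.71 CPM in WT, so both NDD libraries were below. Markers of endothelium summed to 1.88 and 7.28 CPM in NDD and 2.24 to 2.79 CPM in WT, on either side of the WT range. Vwf made up nearly all of each sum, at 1.79 and 7.10 CPM in NDD and 2.19 to 2.75 CPM in WT. Lum, Thy1, Cd3g, Tyrobp, Kdr and Emcn were at 0 counts in all 5 libraries, and the part of these 3 marker lists in the results was not tested. Notch1 was at 55.96 and 55.1 CPM in NDD and 56.3 to 69.1 CPM in WT, and Notch2 at 38.0 and 26.3 CPM in NDD and 36.3 to 55.5 CPM in WT; neither was called, and a gene level does not test a change in the receptor's protein. The NDD libraries were less alike (Spearman correlation 0.966 over tested genes) than any WT pair (0.984 to 0.987), and NDD replicate 2 stood apart, so results below are given for each NDD library.

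In wild-type spheroids, Cdk4 and the D cyclins Ccnd1 and Ccnd2 were the most abundant transcripts of the 10, and Cdkn2a the least abundant. TPM, a level scaled for transcript length, averaged 355 ± 47.6 (SD, n = 3) for Cdk4, 322 ± 109.8 for Ccnd1 and 251 ± 16.0 for Ccnd2 in WT. Myc at 200.4 ± 5.30 TPM and Cdkn1a at 186 ± 48.5 TPM came next. Each of these 5 genes exceeded at least 94.36% of tested genes in mean TPM over all 5 libraries. Ccnd3 followed at 90.9 ± 9.42 TPM, Cdkn1b at 46.1 ± 5.24 TPM, Ccne1 at 27.96 ± 4.30 TPM, Cdk6 at 20.97 ± 4.11 TPM and Cdkn2a at 8.49 ± 4.49 TPM. The WT ranges of neighbours in this order overlapped for Cdk4 and Ccnd1, for Ccnd1 and Ccnd2, for Myc and Cdkn1a and for Ccne1 and Cdk6, and did not overlap for the other 5 pairs of neighbours. Cdk4 exceeded its relative Cdk6 in every library, by 13.7 to 18.5 times in TPM.

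In NDD the order of the 5 most abundant genes was different, with Ccnd2 first at 281 ± 88.1 TPM (SD, n = 2), then Cdk4 at 260.2 ± 51.9 TPM, Cdkn1a at 240.1 ± 122 TPM, Ccnd1 at 189 ± 51.6 TPM and Myc at 165 ± 56.7 TPM. The TPM ranges of neighbours in this order overlapped. By group mean the 5 less abundant genes kept the WT order, but NDD replicate 2 had Cdkn1b (62.8 TPM) above Ccnd3 (58.0 TPM) and Ccne1 (6.48 TPM) last, below Cdkn2a (8.55 TPM).

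**Figure D1:**
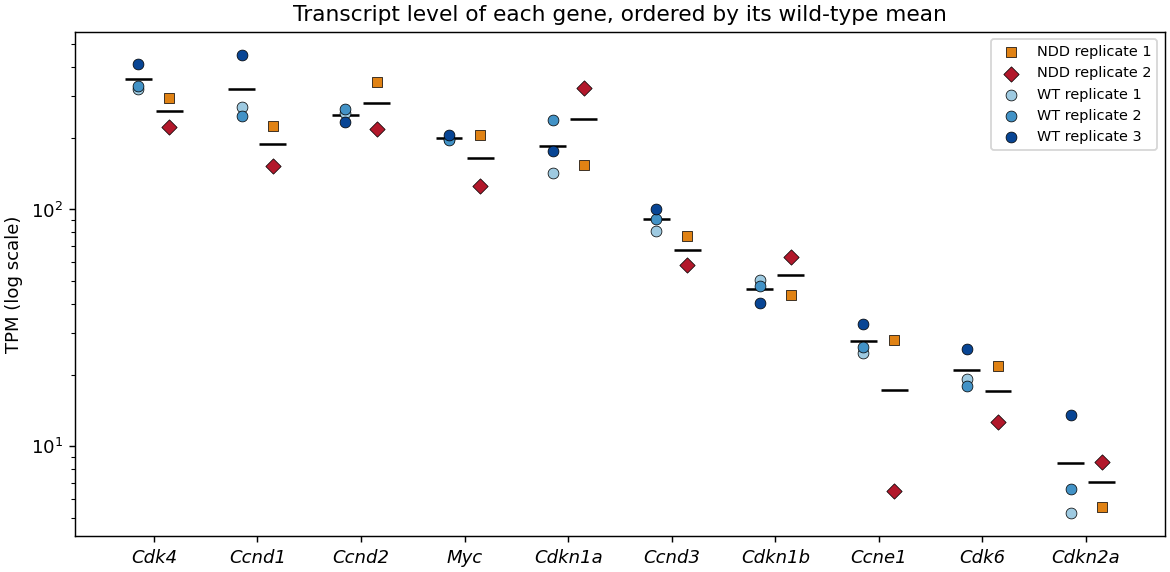
TPM of the 10 genes (log axis), ordered by WT mean, with 1 point per library and a bar at the mean of each group (3 WT libraries at the left of each gene, 2 NDD libraries at the right). Cdk4, Ccnd1 and Ccnd2 lead in WT, while NDD replicate 2 lies lowest for Ccne1, at 6.48 TPM, and highest for Cdkn1a, at 326 TPM.

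None of the 10 genes passed the test between genotypes. With edgeR's quasi-likelihood test an adjusted p under 0.05 was found for 0 of the 10, against 0.0889% of all tested genes (12 of 13501; 0.0667% of genes with higher and 0.0222% with lower levels in the mutant). Before adjustment, p was under 0.05 for 3 of them, Ccnd1, Ccnd3 and Cdk4, against 11.2% of all genes. When 1 library was left out, both the members and the share of all genes under 0.05 moved: 8 members and 30.1% of genes for NDD replicate 1, 1 member and 7.34% for NDD replicate 2, 3 and 9.09% for WT replicate 1, 1 and 7.48% for WT replicate 2, and 0 and 5.14% for WT replicate 3. The same 3 genes were the ones whose CPM in both NDD libraries lay below every WT library, against 16.2% of all genes, and no member lay above WT in both, against 15.8%. Without regard to direction the groups did not overlap for 3 of the 10 and for 32% of all genes. DESeq2, which called 2.64% of all genes, and limma-voom, which called 0.178%, likewise called 0 of the 10. Each had 3 members at an unadjusted p under 0.05, beside 12.9% of all genes with DESeq2 and 11.3% with limma-voom. Log2 fold changes were below 0 for 7 of the 10 and for 50.5% of all genes, with a median of -0.27 beside -0.0047 over all tested genes. Leaving out NDD replicate 1 gave a members' median of -0.58, and leaving out NDD replicate 2 gave -0.17.

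Ccnd1 (chr7:144929931-144939925, minus strand) encodes cyclin D1, the D cyclin that growth factor and Wnt signals are best known to induce. Its level was 493 and 359 CPM in NDD replicates 1 and 2 and 599, 564 and 981 CPM in WT replicates 1, 2 and 3. Both NDD libraries were below every WT library, and WT replicate 3 was far above the other WT libraries. The means were 426 ± 95.3 CPM (SD, n = 2) and 715 ± 231 CPM (SD, n = 3), a log2 fold change of -0.75 (95% interval -1.45 to -0.04, unadjusted p 0.0416, edgeR adjusted p 0.437). Without WT replicate 3 the log2 fold change was -0.45, with an adjusted p of 0.885. Colonocyte markers stood out in the same WT library. Their summed level was 1787 CPM in WT replicate 3 and 2725 and 2572 CPM in WT replicates 1 and 2. In NDD replicates 1 and 2 it was 4317 and 3446 CPM. Car1 made up most of each sum, at 2952 and 1832 CPM in NDD and 1927, 1923 and 1392 CPM in WT, and was not above WT in both NDD libraries. Of the 10 colonocyte markers, 9 were higher in both NDD libraries than in every WT library; their part in the Ccnd1 difference was not tested. In bulk RNA, fewer cells that express a gene and less of its RNA per cell cannot be told apart.

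Ccnd3 (chr17:47505051-47599691, plus strand) encodes cyclin D3, which acts with the same kinases. It was at 83.6 and 67.8 CPM in NDD replicates 1 and 2 and at 89.7, 103 and 109 CPM in WT. The groups did not overlap, with the gap between NDD replicate 1 and WT replicate 1 smaller than the spread within WT. The fit gave a log2 fold change of -0.41 (95% interval -0.78 to -0.03, unadjusted p 0.0366, edgeR adjusted p 0.437). Cdk4 (chr10:127063534-127067920, plus strand), the kinase partner of the D cyclins, was at 206 and 168 CPM in NDD and at 228, 240.4 and 285 CPM in WT. Its groups did not overlap either, and its log2 fold change was -0.43 (95% interval -0.82 to -0.03, unadjusted p 0.0375, edgeR adjusted p 0.437). Both differences were smaller without NDD replicate 2, at -0.25 for Ccnd3 and -0.27 for Cdk4, and without WT replicate 3, at -0.35 and -0.33, with unadjusted edgeR p-values of 0.153 and 0.162 in the first case and 0.108 and 0.113 in the second. WT replicate 3 was the highest of all 5 libraries for both genes, as for 7 of the 10 members and 26.4% of all genes, and it had the lowest sum of colonocyte markers (1787 CPM, against 2572 and 2725 CPM in the other WT libraries and 4317 and 3446 CPM in NDD); their part in the 2 differences was not tested.

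Exons of Ccnd3 overlap those of Bysl, and exons of Cdk4 those of Tspan31, on the opposite strand, and the strand setting of the counting is not given in the sources used here, so reads in the overlaps cannot be assigned with certainty. Bysl had a log2 fold change of -0.63 and Tspan31 one of -0.14, with edgeR adjusted p-values of 0.437 and 0.608. Exons of Ccnd1 overlap a gene on the opposite strand listed under the older symbol Oraov1, which was at 5.32 to 8.43 CPM across the libraries, far below Ccnd1.

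Ccnd2 (chr6:127125162-127152193, minus strand), which encodes cyclin D2, did not share the pattern of the other D cyclins. It was at 1042 CPM in NDD replicate 1, 667 CPM in NDD replicate 2 and 763, 808 and 736 CPM in WT. One NDD library was above and the other below the narrow WT range. Over all libraries the log2 fold change was 0.15 (95% interval -0.34 to 0.65, edgeR adjusted p 0.727). Leaving out NDD replicate 1 gave -0.21, and leaving out NDD replicate 2 gave 0.45. Ccnd2 was also the member whose ratio of count to TPM, which moves with the mix of transcript lengths that the authors' quantification assigned, varied most. Set to a mean of 100 over the libraries and corrected for depth, that ratio was 94.9 in NDD replicate 2, 105.9 in WT replicate 3 and 98.4 to 101.8 in the other libraries. This range of 11.0 exceeded that of 93.4% of 6212 well-counted genes, whose median range was 0.678, and it did not separate the genotypes. The Ccnd2 models in GENCODE M21 run from 627 to 6330 bases among protein-coding transcripts.

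The make-up of D-cyclin transcript, a quantity within each library, had no overlap between the genotypes. Ccnd1 made up 34.9% and 35.6% of summed D-cyclin TPM in NDD replicates 1 and 2 and 44.6%, 41.1% and 57.4% in WT replicates 1, 2 and 3. Ccnd2 made up 53.1% and 50.95% in NDD and 41.9%, 43.8% and 29.8% in WT. The NDD libraries were close to each other in both shares, and WT replicate 3 was the most distant from them. In level the NDD libraries differed. Ccnd2 was at 344 and 219 TPM in NDD replicates 1 and 2, on either side of the WT range of 233 to 264 TPM. Ccnd1 was at 226 and 153 TPM, below WT in both. The mean Ccnd1 share was lower by 12.4 percentage points in NDD, and an exact two-sided permutation test gave p = 0.2 for this share and for that of Ccnd2, the smallest p that 2 against 3 libraries allow. Ccnd3 took 11.9% to 15.1% in all libraries, with overlapping groups (exact p = 0.6). The shares add up to the whole in each library, so the results for Ccnd1 and Ccnd2 are not independent. Summed D-cyclin TPM was 647 and 430.2 in NDD and 606, 603 and 782 in WT, so that the total overlapped while the shares of Ccnd1 and Ccnd2 did not. Without WT replicate 3 the Ccnd1 share differed by -7.61 percentage points (NDD minus WT). Summed colonocyte markers were lowest in that library, at 1787 CPM. They came to 2725 and 2572 CPM in WT replicates 1 and 2 and to 4317 and 3446 CPM in NDD. Their part in the shares was not tested.

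**Figure D2:**
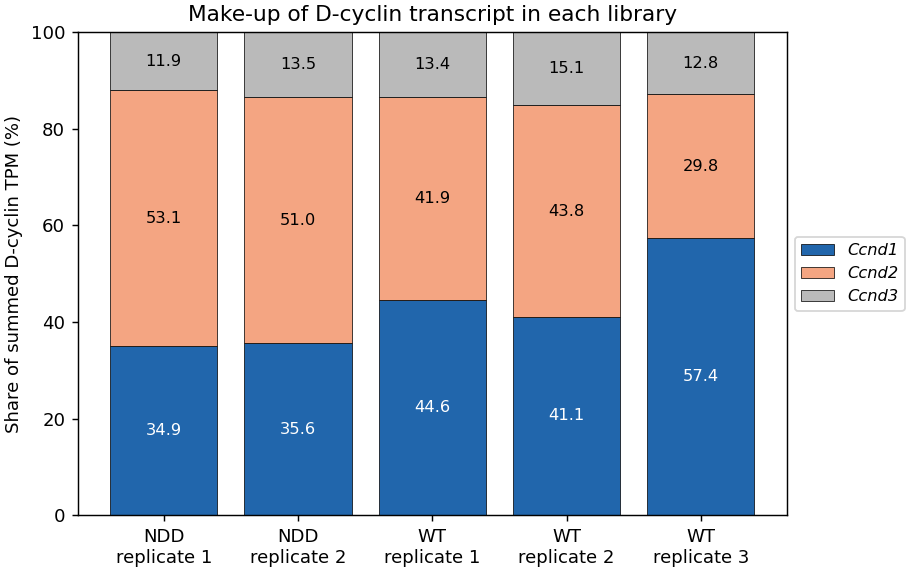
Share of Ccnd1, Ccnd2 and Ccnd3 in their summed TPM, in percent, with 1 stacked bar per library. Ccnd2 is the largest part in both NDD libraries (53.1% and 51.0%) and Ccnd1 the largest in WT replicates 1 and 3, while in WT replicate 2 Ccnd2 (43.8%) is slightly above Ccnd1 (41.1%).

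For most of the other genes NDD replicate 2 stood apart from the remaining libraries. It lay outside the WT range for 9 of the 10 genes, against 76.6% of all tested genes, so this count is near the background. It was below the range for 7, against 38.6% of all genes, and above it for 2, against 38.1%. NDD replicate 1 lay outside the WT range for 4 of the 10, below it for 3 and above it for 1, against 53.5%, 27.4% and 26.1% of all genes. The median fold between the 2 NDD libraries was 1.56 for the 10 genes and 1.29 for all tested genes.

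Ccne1 (chr7:38097984-38107534, minus strand), which encodes cyclin E1, differed most between the NDD libraries. It was at 30.1 CPM in NDD replicate 1, 7.45 CPM in NDD replicate 2 and 26.8, 29.3 and 35.0 CPM in WT, from 688, 159, 517, 666 and 817 counts. NDD replicate 1 was inside the WT range, and NDD replicate 2 was 4.04 times lower than it. Ccne1 had a log2 fold change of -0.69 (95% interval -1.996 to 0.61, edgeR adjusted p 0.568), from -0.00020 without NDD replicate 2 to -2.03 without NDD replicate 1.

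Myc (chr15:61985391-61990374, plus strand), whose protein drives genes of growth and ribosome assembly, was nearly constant in 4 of the 5 libraries. It was at 264 CPM in NDD replicate 1, 175 CPM in NDD replicate 2 and 262, 265 and 267 CPM in WT. The highest WT library exceeded the lowest by 1.02 times, the smallest such ratio of the 10 genes, and NDD replicate 2 lay below all others. For Myc the log2 fold change was -0.27 (95% interval -0.73 to 0.19, edgeR adjusted p 0.534), and it was 0.0076 without NDD replicate 2. When NDD replicate 2 alone was compared with the WT libraries, Ccne1 and Myc were the members called, with edgeR adjusted p-values of 0.0154 and 0.0451. In that fit 1207 of 14007 genes were called, and the lone library was assumed to vary as the WT libraries do.

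Cdk6 (chr5:3341485-3531008, plus strand) was at 149.8 and 93.6 CPM in NDD and at 136, 129 and 177 CPM in WT. Only NDD replicate 2 was outside the WT range, and the log2 fold change of -0.28 (95% interval -0.87 to 0.32, edgeR adjusted p 0.610) was 0.04 without that library.

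Of the inhibitors, Cdkn1a (chr17:29090976-29100727, plus strand), which encodes p21, was at 160.1 CPM in NDD replicate 1, 366 CPM in NDD replicate 2 and 151, 259 and 184 CPM in WT. NDD replicate 2 was above every other library and NDD replicate 1 within the WT range. This gave a log2 fold change of 0.41 (95% interval -0.52 to 1.34, edgeR adjusted p 0.626), and -0.29 without NDD replicate 2. Cdkn1b (chr6:134920401-134925513, plus strand), which encodes p27, was at 62.6 and 97.9 CPM in NDD and at 73.8, 69.9 and 57.7 CPM in WT. It had the same arrangement, with a log2 fold change of 0.26 (95% interval -0.28 to 0.79, edgeR adjusted p 0.599) that was -0.09 without NDD replicate 2. Cdkn1a plus Cdkn1b came to 0.904 times the summed D-cyclin TPM in NDD replicate 2, against 0.305 in NDD replicate 1 and 0.278 to 0.475 in WT (exact two-sided permutation p = 0.6).

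Cdkn2a (chr4:89274471-89294653, minus strand) gives rise to p16INK4a and, from another first exon and reading frame, to p19ARF, a protein that guards p53; counts per gene do not separate them. It was the least abundant member, at 54 and 83 counts in NDD and 45, 68 and 138 counts in WT, or 2.36 and 3.89 CPM against 2.33, 2.99 and 5.92 CPM. Both NDD libraries lay inside the WT range, which WT replicate 3 set at its upper end. Its log2 fold change was -0.27 (95% interval -1.47 to 0.94, edgeR adjusted p 0.807) and 0.23 without WT replicate 3.

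**Figure D3:**
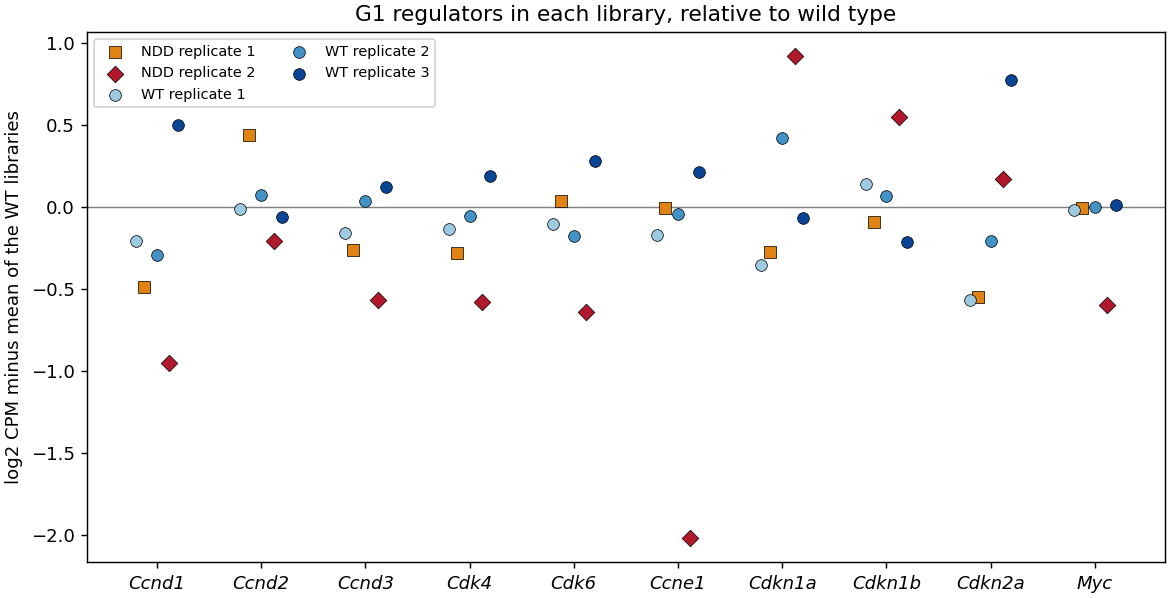
Log2 CPM of each gene minus the mean of the 3 WT libraries, with 1 point per library. Both NDD libraries lie below all WT libraries for Ccnd1, Ccnd3 and Cdk4, whereas for Ccne1, Myc, Cdk6, Cdkn1a and Cdkn1b NDD replicate 1 lies within the WT range and NDD replicate 2 outside it.

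**Figure D4:**
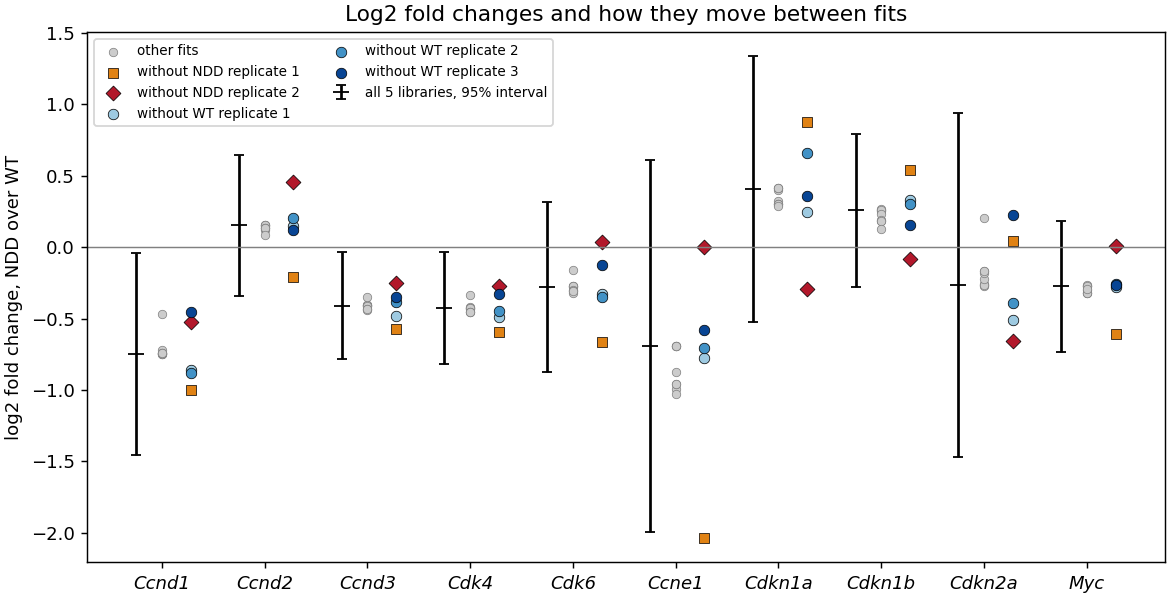
Log2 fold change of each gene, NDD over WT, with the 95% interval of the fit to all 5 libraries (black), 9 other fits (grey) and the fits without 1 library (coloured by the library left out). The intervals lie below 0 for Ccnd1, Ccnd3 and Cdk4, and leaving out NDD replicate 2 brings Ccne1 and Myc to -0.00020 and 0.0076.

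On log2(TPM + 1), the exact two-sided permutation p was 0.2, the smallest possible, for Ccnd1, Ccnd3 and Cdk4, and p from 0.6 to 1 for the other 7 genes. At 45 counts or more in every library, all 10 could be tested, and the intervals of Ccnd1, Ccne1, Cdkn1a and Cdkn2a remain wide enough to hold differences of more than 1 on the log2 scale.

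Other genes of the pathway were read from hand-assembled lists, which are not published signatures. The list of G1/S machinery holds 26 genes, all tested: CDK2 and its activators, the remaining inhibitors, the retinoblastoma family, E2F and DP factors, and factors that degrade or assist the cyclin complexes. None of the 26 passed in either direction, and the median log2 fold change was -0.26, which became -0.025 without NDD replicate 2 and -0.63 without NDD replicate 1. Cdk2, the kinase partner of cyclin E, was at 57.4 and 25.3 CPM in NDD and 45.7 to 58.9 CPM in WT. Ccne2, which encodes cyclin E2, was at 11.3 and 4.17 CPM in NDD and 10.7 to 16.9 CPM in WT. E2f1, the activating E2F factor, was at 36.3 and 9.79 CPM in NDD and 29.1 to 31.8 CPM in WT. For each of these 3 genes NDD replicate 2 lay below the WT range and NDD replicate 1 did not. Of the 26 genes, 18 lay below and 6 above the WT range in NDD replicate 2, against 38.6% and 38.1% of all genes, and 7 below and 7 above it in NDD replicate 1, against 27.4% and 26.1%. Rb1, the retinoblastoma gene, was at 53.6 and 101.6 CPM in NDD and 55.8 to 65.7 CPM in WT, with the 2 NDD libraries on opposite sides of the WT range.

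Of the 26 genes, 6 lay below and 2 above WT in both NDD libraries, against 16.2% and 15.8% of all genes. The 3 with the highest mean TPM were among the 6, though none passed. E2f4, which acts mainly as a repressor in resting cells, was at 149.7 and 116 CPM against 156 to 179 CPM. Tfdp1, the DNA-binding partner of E2F factors, was at 168 and 84.0 CPM against 170.0 to 226 CPM. Cks1b, which helps to mark p27 for degradation, was at 36.2 and 20.6 CPM against 41.8 to 51.0 CPM, and its log2 fold change was -0.70 (SE 0.26; adjusted p 0.437, edgeR). An unadjusted p under 0.05 was reached by 1 of the 26, Cks1b, a smaller share than the 11.2% of all genes.

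Among 20 S phase genes that respond to E2F, none passed. Unadjusted p (edgeR) was under 0.05 for 0 of them, against 11.2% of all genes. Each of the 20 had a log2 fold change below 0, against 50.5% of all tested genes, with a median of -0.60. All 20 lay below the WT range in NDD replicate 2, against 38.6% of all genes. In NDD replicate 1, 5 of the 20 did so, which is near the 27.4% of all genes. Pcna, the sliding clamp of DNA polymerase, was at 194 and 71.97 CPM in NDD and 199.8 to 213 CPM in WT. Mcm7, a subunit of the replicative helicase, was at 219 and 79.7 CPM against 214 to 248 CPM, and Ccna2, which encodes cyclin A2, at 322 and 145 CPM against 318 to 354 CPM. Relative to the WT mean the list's median was -0.066 in NDD replicate 1 and -1.51 in NDD replicate 2 on the log2 scale. The median log2 fold change, taken without NDD replicate 2, was -0.054, and taken without NDD replicate 1 it was -1.53. Of the colonocyte markers, Car4, Slc26a3, Aqp8, Krt20 and Phgr1 were higher in NDD replicate 2 than in NDD replicate 1 (Aqp8 at 172 against 63.0 CPM). Car1, Cdhr5, Guca2a, Slc37a2 and Ceacam20 were lower there (Car1 at 1832 against 2952 CPM). Their part in the S phase result was not tested.

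Among 18 growth genes known to respond to MYC, none passed, 7 had an unadjusted p under 0.05 (11.2% of all genes), all 18 had a log2 fold change below 0 (50.5% of all genes; list median -0.59), and 10 of the 18 lay below WT in both NDD libraries, against 16.2% of all genes. The colonocyte markers, summing to 4317 and 3446 CPM in NDD and 1787 to 2725 CPM in WT, were lowest in WT replicate 3, where the median of this list was highest (0.23 above the WT mean on the log2 scale); their part in the result was not tested. Npm1, which encodes the nucleolar protein nucleophosmin, was at 565 and 525 CPM in NDD and 704 to 897 CPM in WT (log2 fold change -0.50, SE 0.16, edgeR adjusted p 0.412). Fbl, the methyltransferase fibrillarin, was at 149 and 81.1 CPM against 155 to 202 CPM. Odc1, the first enzyme of polyamine synthesis, was at 323 and 337 CPM against 322 to 443 CPM, with overlapping groups. Relative to the WT mean the list's median was -0.27 in NDD replicate 1 and -0.97 in NDD replicate 2. Myc itself was inside the WT range in NDD replicate 1. The same median was -0.23 in WT replicate 2, close to that of NDD replicate 1, and -0.014 in WT replicate 1. With NDD replicate 1 as the only mutant library, the list's median log2 fold change came to -0.27. With NDD replicate 2 as the only one, it came to -1.004.

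Of the 12 genes of the MYC network, which bind MAX or its relative MLX, none passed and the median log2 fold change was 0.063, or -0.045 without NDD replicate 1 and 0.18 without WT replicate 1. Max, the partner of MYC, was at 160.2 and 137 CPM in NDD and 142 to 166 CPM in WT, Mlx at 87.3 and 122 CPM against 85.4 to 101.7 CPM, and Mxd4 at 27.5 and 21.4 CPM against 18.2 to 23.6 CPM. In both NDD libraries 1 of the 12 lay below and 1 above WT, and 2 had an unadjusted p under 0.05, against 16.2%, 15.8% and 11.2% of all genes, so these counts are near the background. Those 2 are named because of their values. Mycn, a close relative of Myc, was at 2.45 and 2.48 CPM in NDD and at 5.38, 5.71 and 9.01 CPM in WT (log2 fold change -1.44, SE 0.34, edgeR adjusted p 0.293). Mxd1, which encodes a MAX partner that opposes MYC and is known from differentiating epithelium, was at 73.5 and 163 CPM in NDD and at 56.3, 59.7 and 28.1 CPM in WT (log2 fold change 1.30, SE 0.43, edgeR adjusted p 0.427). For both genes the groups did not overlap.

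The 18 genes that respond to p53, the best-known inducer of Cdkn1a, had a median log2 fold change of -0.15 (-0.24 without NDD replicate 1, -0.059 without WT replicate 3), and none passed. Highest in mean TPM were Perp, a desmosome protein gene, at 281 and 293 CPM against 244 to 281 CPM, Bax, a mediator of apoptosis, at 106 and 91.6 CPM against 104.6 to 142 CPM, and Ei24 at 187 and 159 CPM against 157 to 185 CPM. In NDD replicate 2, where Cdkn1a was highest, 6 of the 18 lay above the WT range and 7 below it, against 38.1% and 38.6% of all genes. In both NDD libraries 2 of the 18 lay below and 2 above WT, against 16.2% and 15.8% of all genes. An unadjusted edgeR p under 0.05 was found for 2 of the 18, against 11.2% of all genes. These counts are near the background.

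**Figure D5:**
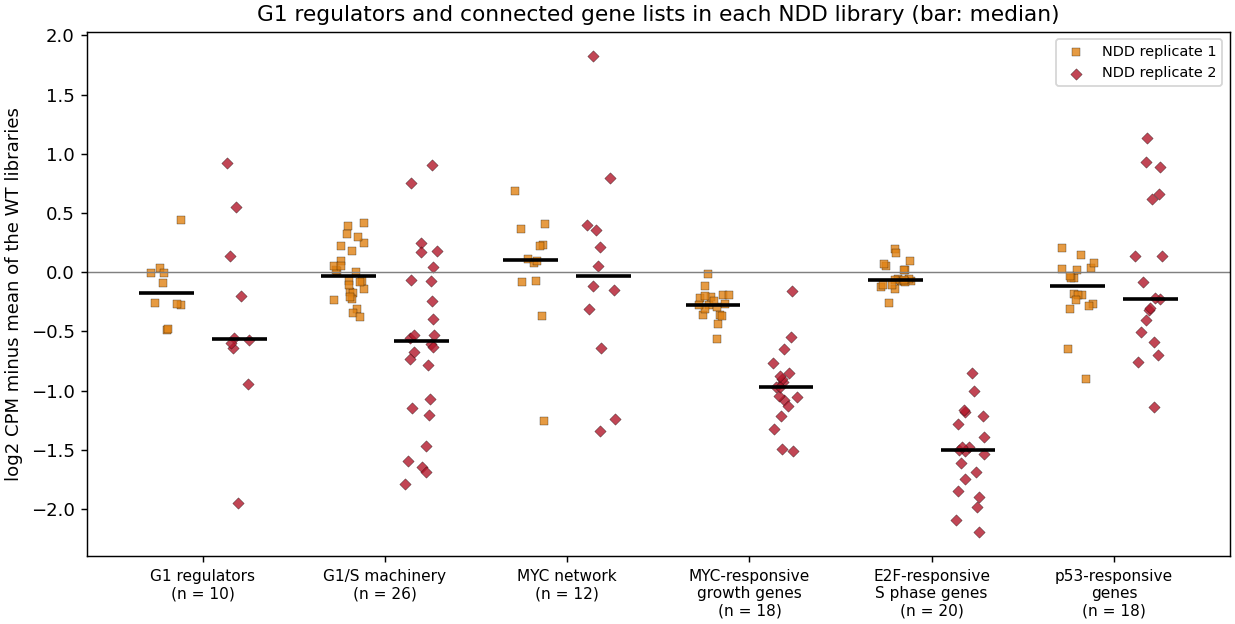
Log2 CPM (with 0.5 CPM added) of each gene minus the mean of the 3 WT libraries, for NDD replicates 1 and 2, in the 10 G1 regulators and 5 connected lists, with bars at the medians. The S phase genes lie near 0 in NDD replicate 1 (median -0.066) and far lower in NDD replicate 2 (-1.51). The MYC-responsive genes lie below 0 in both (-0.27 and -0.97), but their median in WT replicate 2 was -0.23, close to that of NDD replicate 1.

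The genes whose profiles over the 5 libraries were most like those of the members were found by the root mean square difference of centred log2 CPM among 10434 genes. Nearest to Ccnd1 were Cdc42ep1, Ajuba and Adgrg1 at 0.058 to 0.081 on the log2 scale, where the median gene was at 0.480. Ajuba, which encodes a LIM protein of cell junctions, was at 90.4 and 68.2 CPM in NDD and 115, 119 and 207 CPM in WT. Nearest to Cdkn1a were Phgdh, Sars and Eif4ebp1, which encode an enzyme of serine synthesis, the cytosolic seryl-tRNA synthetase and a repressor of cap-dependent translation. Phgdh was at 83.7 and 217 CPM in NDD and at 79.0, 149.6 and 101.2 CPM in WT, at a distance of 0.072 from Cdkn1a where the median gene was at 0.525.

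Nearest to Ccne1 were Fignl1, Mtfr2 and Tcf19 (0.062 to 0.094, median gene 0.787), to Myc Med19, Samm50 and Mcmbp (0.016 to 0.027), and to Ccnd2 Srxn1, Plcd3 and Nemp2 (0.020 to 0.048). Srxn1, which encodes the enzyme sulfiredoxin, was at 153 and 101.05 CPM in NDD and 111 to 119 CPM in WT, with 1 NDD library on each side of the WT range as for Ccnd2. Nearest to Cdk4 were Slc19a2, Ruvbl2 and Skiv2l2 and to Ccnd3 Txnl4a, Utp3 and Snrpc (0.019 to 0.030 for the 6 genes). Nearest to Cdk6 were Utp6, Wwc1 and Rrn3 (0.039 to 0.043), to Cdkn1b Rnf31, Dnmbp and Rrbp1 (0.031 to 0.035), and to Cdkn2a, at low counts, Creb3l2, AK086757 and Efna3 (0.091 to 0.121). With 5 libraries, likeness of profile is a description of these libraries. The nearest genes were picked for their small distances, so their place below the median gene follows from that choice.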

How the data were processed

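The files hold, per gene, estimated counts that the authors deposited as whole numbers without normalization, and TPM that the authors scaled for transcript length and to a fixed sum per library. Bowtie2, RSEM and the genome build mm10 are named in the submitters' processing notes, without versions. The annotation and strand setting are not given in the sources used here. All 10 value columns matched a sample title.

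Genotypes were compared by edgeR's quasi-likelihood test on the estimated counts of all 5 libraries (R 4.3.3 with edgeR 4.0.16; filterByExpr, TMM factors and a robust prior), with Benjamini-Hochberg adjustment over 13501 genes and a call at an adjusted p under 0.05. Fold changes used a prior count of 0.125. Their SE was the size of the log2 fold change over the square root of F, and 95% intervals used that SE. CPM were scaled by TMM, except summed marker levels. Depth was 19192389 to 23064000 counts per library. The code was tested on simulated counts. DESeq2 1.42.0, limma 3.58.1 and the settings of the closing section were alternatives.

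The members, lists and tests were chosen with earlier results of these data known. Named were the members, Notch1 and Notch2, from each list every called gene and the 3 with the highest mean TPM, also Cdk2, Ccne2, Rb1 and E2f1, and the 3 genes nearest to each member with a mean log2 CPM of at least 2 (0.5 CPM added before logs) and no predicted-gene symbol. Mycn and Mxd1, and the genes whose exons overlap a member's, were named outside this rule. Coordinates are those of GENCODE M21 (GRCm38, the assembly of mm10). Of the bases of each member's transcripts, read as runs of 31, at most 4.32% (Ccnd3) were shared with another gene.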

Additional observations from a re-analysis of the deposited data

How the results depend on the processing

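The number of members called stayed at 0 under RLE factors, no filter on low counts, at least 10 counts per library, DESeq2, limma-voom, the 3 limma fits on TPM and the replicate block, with 1 to 3 members at an unadjusted p under 0.05 in each, beside 6.98% to 12.9% of all genes. It ranged from 0 to 2 when each library was left out in turn (with 0 to 8 members at an unadjusted p under 0.05, beside 5.14% to 30.1% of all genes, both highest without NDD replicate 1), and the 2 were Ccne1 and Myc without NDD replicate 1. The number of all genes called, 12 in the report, was 58 with no filter, 4 with the minimum of 10 counts, 357 with DESeq2, 24 with limma-voom and 33 with the replicate block, and from 0 (without WT replicate 1, where 1211 had an unadjusted p under 0.05) to 1207 (without NDD replicate 1) across the fits without a library. The log2 fold change of Ccnd1 stayed below 0 in all of these, between -1.003 (NDD replicate 1 left out) and -0.45 (WT replicate 3 left out), and at -0.47 with the replicate block, and those of Ccnd3 and Cdk4 did so too. Signs turned when 1 library was left out for Ccnd2 (range -0.21 to 0.45), Cdk6 (-0.66 to 0.038), Cdkn1a (-0.29 to 0.88), Cdkn1b (-0.086 to 0.54), Myc (-0.60 to 0.0076) and Cdkn2a (-0.66 to 0.23), and for Cdkn2a also with the replicate block (0.20); the cause was not tested. The library was NDD replicate 1 for Ccnd2, NDD replicate 2 for Cdk6, Cdkn1a, Cdkn1b and Myc, and NDD replicate 1 or WT replicate 3 for Cdkn2a. The replicate block fits each replicate number as a term, and replicate 3 exists only in WT. WT replicate 3 therefore does not enter the block's fold changes, so the block is not separate from leaving that library out. For Cdkn2a the block gave 0.20 and the fit without WT replicate 3 gave 0.23. The difference in the Ccnd1 share of D-cyclin transcript was -12.8 percentage points on CPM and ranged from -15.8 to -7.61 without 1 library. Replicate numbers are shared by the genotypes, but the labels tie them to no litter, batch or day. The pairing was used only in the replicate block. After removal of each group's mean, the 2 libraries numbered 1 correlated at -0.0095 over genes and the 2 numbered 2 at 0.35. Every member had at least 45 counts per library, and exact tests on 2 against 3 libraries cannot go below 0.2.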
